A study of Mus musculus with 54 samples.

Results

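Chromosome 18 carries Apc, the gene that is mutated in Apc Min mice. Its deposited 250 bp windows were examined across libraries of methylated DNA captured from mouse intestine. All windows of the chromosome were taken except one stretch that is not analysed here. They numbered 359009 of the 9850971 autosomal windows, or 3.64%, and of 10535096 windows in all. A further 3801 windows of chromosome 18 were left out, and 24027 of the 359009 had no count in any MeDIP library. MeDIP is immunoprecipitation of DNA fragments with an antibody against 5-methylcytosine, followed by sequencing.

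The tissues came from mice aged 15 to 19 weeks, per the labels. C57BL/6 (B6) gave 5 adenomas and 3 normal mucosa samples of Apc Min genotype, and 4 wild-type mucosa samples. The F1 cross of B6 with PWD (B6xPWD) gave 3 adenomas (11_5, 16_6 and 18_2), 3 samples of Apc Min normal mucosa and 3 of wild-type mucosa. PWD gave 3 samples of wild-type mucosa. C5 mice, which have a PWD chromosome 5 on a B6 genome, and the C5F1 group gave 3 adenomas, 3 normal and 3 wild-type samples each, and C1_5F1 gave 2 adenomas and 2 normal samples. The labels do not spell out the C5F1 and C1_5F1 crosses, do not say which parent of the F1 passed on the Min allele, and name no animal or sex. Apc Min is a germline allele that every cell of those mice carries, so the normal mucosa carries it too. PWD samples with the Min allele are not among the groups, so the PWD end of every scale below is wild-type tissue.

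Apc is a scaffold of the complex that marks beta-catenin for destruction, and without it Wnt target genes stay on in the intestinal crypt. Min mice inherit 1 truncated copy, and their adenomas are known to lose the function of the remaining copy, often with loss of that whole chromosome 18 homologue or its replacement by a copy of the mutant homologue. In an F1 mouse the parental homologues differ in sequence and in methylation, so counts at windows where the parents differ change with the amount of each homologue. They also change with the methylation of either homologue, and MeDIP counts alone cannot tell these apart.

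Total counts were 16246061 to 22712896 in the B6xPWD libraries and 8358806 to 27842607 over all 46 MeDIP libraries. For B6xPWD sample 11_6 the labels conflict, since its MeDIP library is named normal mucosa and its input wild type; the MeDIP name was followed. Tissue identity could be looked at only through methylation at gene ends, not expression. At 5 epithelial marker genes the summed level of B6xPWD adenomas was 3.95 CPM (counts scaled to the library total) in 11_5, 1.45 in 16_6 and 1.88 in 18_2, against 1.28 to 2.35 in the 6 normal and wild-type libraries. At 4 immune markers the adenomas had 5.34 to 6.62 CPM against 5.13 to 6.03, and at 4 stromal and endothelial markers 6.28 to 7.89 against 5.20 to 7.59. With edgeR, 0 of the 12 marker gene ends tested passed in B6xPWD adenomas, where 3 of 4 in each list were above 0; over all gene ends 0.0161% passed, so a count of 0 is no result about the markers. The part of cell composition in the results below was not tested.

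Windows that tell the homologues apart came first. PWD wild type was compared with B6 wild type, with 3 and 4 libraries, at the 42531 chromosome 18 windows that passed the count filter. With edgeR and a Benjamini-Hochberg adjusted p under 0.05, 3203 of these windows were higher in PWD and 6188 were lower. Those are 7.53% and 14.5% of the windows tested on the chromosome. Over all 1171415 autosomal windows tested the shares were 7.35% and 12.3%, so chromosome 18 lay near the background. Along the chromosome the share called lower ran from 13.5% to 16.0% over the 9 bins of 10 Mb from the start, and the share called higher from 6.21% to 8.36%. A low count in PWD can come from less methylation, from a sequence that PWD lacks, or from PWD reads that map poorly to the B6 reference, and these cannot be told apart here.

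Of the 8 windows named here for the lowest p between the parents, 7 lay between positions 67537001 and 80207250 and 1, in Arhgap26, elsewhere. A window inside Spire1, which encodes an actin nucleator (chr18:67537251-67537500), had 0.0347 CPM in B6 wild type and 2.59 ± 0.551 CPM (SD, n = 3) in PWD, a log2 difference of 5.97 ± 0.44 (SE) with an edgeR adjusted p of 2.13e-16. Its neighbour (chr18:67537001-67537250), a window in the sialyltransferase gene St8sia5 (chr18:77204001-77204250) and a window shared by Txnl4a and Gm16286 (chr18:80207001-80207250) followed, at 4.19, 3.73 and 5.93 on the log2 scale. On the other side, a window 262681 bp from Mc2r (chr18:68692001-68692250) had 1.84 ± 0.249 CPM (SD, n = 4) in B6 and 0.0418 in PWD. A window in Arhgap26 (chr18:38722501-38722750) had 1.59 CPM in B6 and 0.0311 in PWD. A pair of windows 422273 and 421273 bp from Dcc (chr18:72773501-72773750 and chr18:72772501-72772750) had 1.47 and 1.52 CPM in B6; PWD had no count in the first and 0.0287 CPM in the second.

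The F1 wild type held intermediate levels at such windows. In the Spire1 window the 6 normal and wild-type B6xPWD libraries had 1.67 to 2.26 CPM, with a median of 1.85. Adenomas 11_5, 16_6 and 18_2 had 1.65, 1.40 and 1.62 CPM there, all under those 6. In the neighbouring Spire1 window (chr18:67537001-67537250) the 6 libraries had 1.23 to 1.62 CPM. There adenoma 11_5 was above them at 1.70, and 16_6 and 18_2 lay within their range at 1.40 and 1.44. In the window near Mc2r the 6 libraries had 1.23 to 1.53 CPM, adenoma 11_5 was under them at 1.10, and adenomas 16_6 and 18_2 were above them at 1.54 and 1.62. In the Dcc-side window with no PWD count, the 6 libraries had 0.352 to 1.04 CPM and the adenomas 0.848, 0.498 and 0.937, so the groups overlapped. Single windows rest on few reads, and these were chosen for their parental difference.

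For a measure over the chromosome, windows called at an adjusted p under 0.05 and at least 2-fold apart were summed in 2 classes. There were 2898 windows higher in PWD and 5886 lower in PWD on chromosome 18. Those higher in PWD averaged 0.219 CPM in B6 wild type and 0.722 in PWD, with a midpoint of 0.471, and the 6 normal and wild-type B6xPWD libraries averaged 0.460. Those lower in PWD averaged 0.579 CPM in B6 and 0.143 in PWD, with a midpoint of 0.361, and the B6xPWD libraries averaged 0.370. Each library was then placed on a scale on which the mean of B6 wild type is 0% and that of PWD wild type 100%, and the values of the classes were averaged. This value is called the position. Because the parents chose the windows, their own positions are not a finding. Each parental library was also placed by windows chosen without it, under a different rule. That rule took windows where the remaining parental libraries did not overlap and their means were at least 2-fold apart. The B6 wild-type libraries then lay at 6.07% to 16.2% and the PWD libraries at 86.4% to 92.3%. Because the rule differs, these values do not measure the effect of the edgeR choice of windows.

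Adenomas of the F1 differed from one another in their chromosome 18 position. The 3 Apc Min normal libraries lay at 49.2% (11_6), 47.3% (16_5) and 47.3% (18_1), and the 3 wild-type libraries at 48.0% (11_3), 48.0% (11_4) and 47.9% (16_4). Adenoma 11_5 lay at 46.5%, adenoma 16_6 at 38.6% and adenoma 18_2 at 37.8%. Adenomas 16_6 and 18_2 stood apart from the other 7 libraries toward B6, while 11_5 lay just under the lowest of the 6 libraries without tumour. The mean of the 6 was 48.0% ± 0.697 (SD, n = 6), and the adenomas differed from it by -1.49, -9.34 and -10.1 percentage points. In bulk tissue, a shift in part of the cells and a smaller shift in all of them cannot be told apart.

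The mean difference between adenoma and the 6 other B6xPWD libraries was -6.99 percentage points. An exact permutation test (two-sided) gave p = 0.0238, the smallest that 3 against 6 libraries can give. Against the 3 Apc Min normal libraries alone the difference was -6.97 with an exact p of 0.1, the smallest that 3 against 3 can give. Without adenomas 16_6 and 18_2, the remaining adenoma differed by -1.49 from the 6; it lay under all 6, and its exact p of 0.286 is the smallest that 1 against 6 libraries can give. Leaving out only 16_6 or only 18_2 gave -5.82 or -5.42, and leaving out 11_5 gave -9.74. Each of these has an exact p of 0.0714, the smallest that 2 against 6 allows. Apc Min normal and wild-type mucosa differed by -0.0383 percentage points (exact p = 1).

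**Figure D1:**
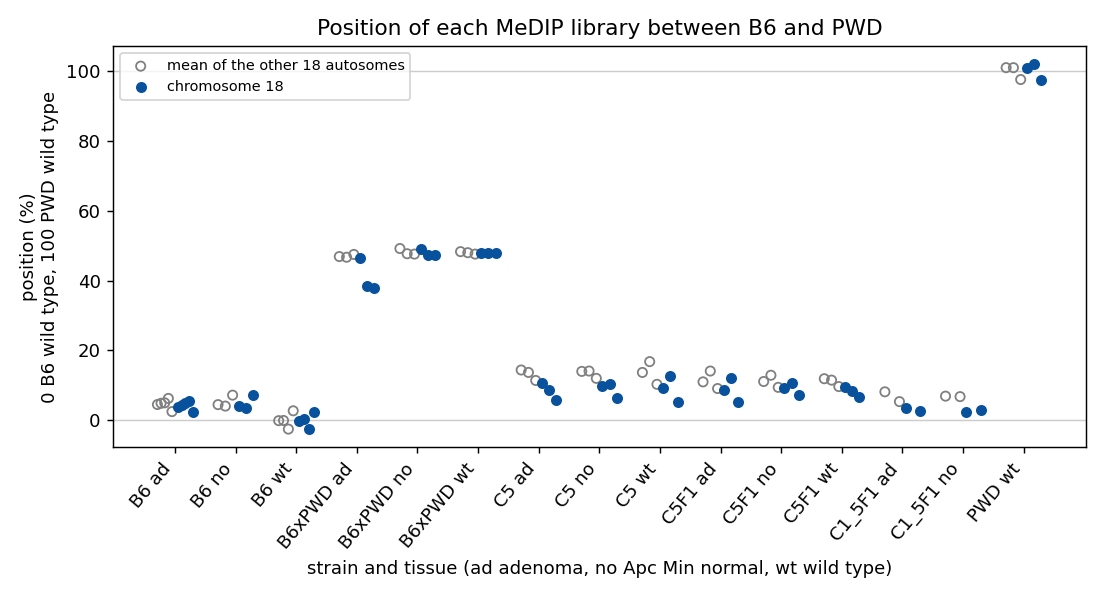
Position between the mean of B6 wild type (0%) and of PWD wild type (100%) for every MeDIP library, by strain and tissue; filled points are chromosome 18 and open points the mean of the other 18 autosomes. Adenomas 16_6 and 18_2 of B6xPWD lie at 38.6% and 37.8% on chromosome 18 while the other B6xPWD libraries lie at 46.5% to 49.2%; the PWD and B6 wild-type points set the scale.

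The label numbers 11, 16 and 18 each hold a B6xPWD adenoma and an Apc Min normal library, though the labels do not say what the number stands for. Within these numbers adenoma minus normal was -2.74 percentage points for 11, -8.69 for 16 and -9.49 for 18. With wild type included, the mean of the within-number differences was -6.81, and its exact p of 0.0833 is the smallest this layout can give.

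Chromosome 18 was the lowest autosome of adenomas 16_6 and 18_2. Over the other 18 autosomes, positions lay between 46% and 47.4% in 16_6, between 46.3% and 48.4% in 18_2 and between 46% and 48.0% in 11_5. Against the mean of the 6 libraries without tumour, the other autosomes differed by -1.83 to -0.556 percentage points in 11_5, by -1.84 to -0.716 in 16_6 and by -1.34 to 0.307 in 18_2. In 11_5 chromosome 18 ranked 4th from the lowest of 19. The position of chromosome 18 minus the mean of the other 18 autosomes was -0.452 in 11_5, -8.11 in 16_6 and -9.67 in 18_2. In the 6 libraries without tumour it ran from -0.441 to 0.256. The difference in this measure was -5.95 percentage points (exact p = 0.0238). Adenoma 11_5, at -0.452, lay close to the lowest of the 6, at -0.441, and without adenomas 16_6 and 18_2 the difference was -0.325, again with the smallest exact p that 1 against 6 can give (0.286).

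**Figure D2:**
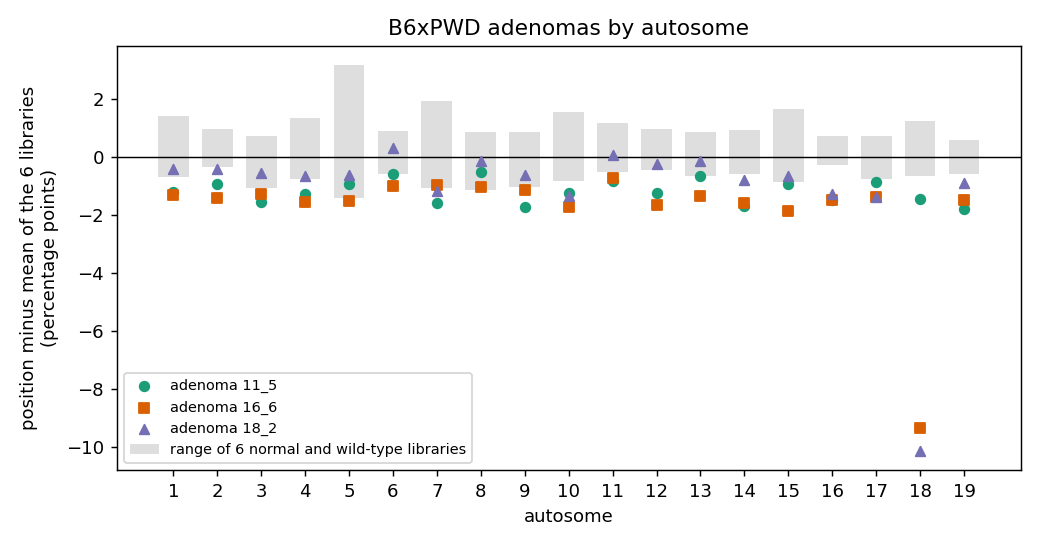
Position of each B6xPWD adenoma minus the mean of the 6 B6xPWD libraries without tumour, in percentage points, for autosomes 1 to 19; grey bars span those 6 libraries. On chromosome 18 adenomas 16_6 and 18_2 lie at -9.34 and -10.1 and adenoma 11_5 at -1.49; no other autosome of an adenoma lies under -1.84.

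Small shifts of the same sign were seen beyond chromosome 18. Adenoma minus the 6 libraries was negative on all 19 autosomes, and 7 of them, chromosome 18 included, reached the exact p of 0.0238 (adjusted over 19, 0.0646). On the other 6 the difference was -0.914 to -1.44, against -6.99 on chromosome 18.

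The windows higher and lower in PWD are separate sets, and both classes shifted. In windows higher in PWD, 16_6 fell by 9.84 and 18_2 by 9.68 percentage points against the 6 libraries, and adenoma 11_5 differed by -0.733. In windows lower in PWD the differences were -8.84, -10.6 and -2.25. In counts, the mean level at windows higher in PWD was 10.8% lower in 16_6 and 10.6% lower in 18_2 than in the 6 libraries, and at windows lower in PWD it was 10.4% and 12.5% higher. Adenoma 11_5 differed by -0.801% and 2.65%. On the other autosomes the same classes differed by -2.79% to 0.208% and by -0.498% to 2.89% in the 3 adenomas.

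**Figure D3:**
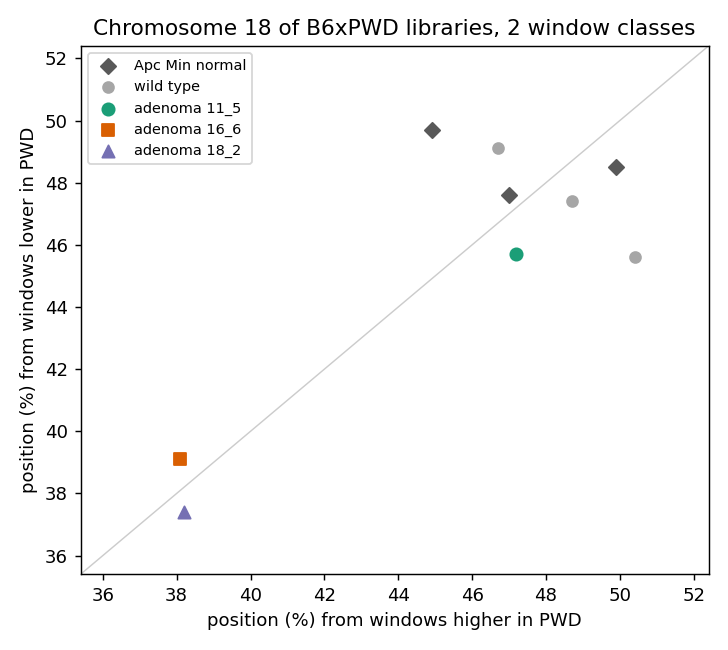
Chromosome 18 position of the 9 B6xPWD libraries from windows higher in PWD (horizontal axis) against windows lower in PWD (vertical axis), in percent; the grey line marks equal values. Adenomas 16_6 and 18_2 are low on both axes (38.1% and 39.1%, 38.2% and 37.4%), while adenoma 11_5 (47.2% and 45.7%) lies beside the libraries without tumour.

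Window by window the shift was spread over many windows. In adenomas 16_6 and 18_2, 63.9% and 63.0% of the 2898 windows higher in PWD were on the B6 side of the mean of the 6 libraries, and 58.8% and 57.7% of the 5886 windows lower in PWD. Adenoma 11_5 had 53.8% and 49.7%. The 6 libraries without tumour, each against the mean of the other 5, had 47.6% to 56.6% and 43.4% to 51.3%. The shift was also seen in windows of each CpG score, the deposited CpG density of a window, and of each size of parental difference, a split added after seeing the data. At CpG scores under 2, from 2 to 5, and of 5 or more, 16_6 lay at 38.7%, 39.6% and 38.7%, and 18_2 at 32.5%, 37.5% and 37.8%. At windows 2 to 4 fold, 4 to 8 fold and over 8 fold apart, 16_6 lay at 39.4%, 37.9% and 38.5% and 18_2 at 38.5%, 37.6% and 36.1%. The lowest library without tumour was at 44.3% or above in all 6 of these sets.

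Libraries with B6 chromosomes only did not lie exactly at 0%. The 8 B6 Apc Min libraries averaged 4.54% on chromosome 18, so the distance from the mean of the 6 B6xPWD libraries to them was 43.4 percentage points. Adenoma 16_6 had moved over 21.5% of that distance, adenoma 18_2 over 23.4% and adenoma 11_5 over 3.43%. These shares have no replicate error of their own, since each adenoma is 1 library.

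Along the chromosome the shift in 16_6 and 18_2 ran from end to end. In the 9 bins of 10 Mb tested, 16_6 lay at 37.4% to 40.5% and 18_2 at 36.8% to 42.7%, and both were under all 6 libraries without tumour in 9 of 9 bins. Those 6 libraries lay between 44.5% and 53.5%. The smallest difference of 16_6 from their mean was -7.02, in the bin from 10 to 20 Mb, and the largest -11.4, from 20 to 30 Mb. For 18_2 the smallest was -6.16, in the first 10 Mb, and the largest -12.0, from 80 to 90 Mb. With 5 Mb bins, added after seeing the data, both adenomas were under all 6 libraries in 18 of 18 bins. On the other 18 autosomes, 16_6 was under all 6 in 103 of 243 bins of 10 Mb (42.4%) and 18_2 in 56 of 243 (23.0%). In bins of 5 Mb the counts there were 151 of 474 (31.9%) for 16_6 and 106 of 474 (22.4%) for 18_2.

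Adenoma 11_5 lay at 44.2% to 47.7% in the 10 Mb bins. It was under all 6 libraries in 4 of 9 bins (44.4%), against 86 of 243 bins of the other autosomes (35.4%), so chromosome 18 did not stand out in that library. None of the 9 bins passed in the comparison of the 3 adenomas with the 6 libraries (exact permutation tests, smallest adjusted p 0.0536), while 8 of 9 had an unadjusted p under 0.05. The difference was -5.35 to -8.25 percentage points over the bins. The last bin, from 90 Mb, held only 5 and 10 windows of the classes and was left out.

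**Figure D4:**
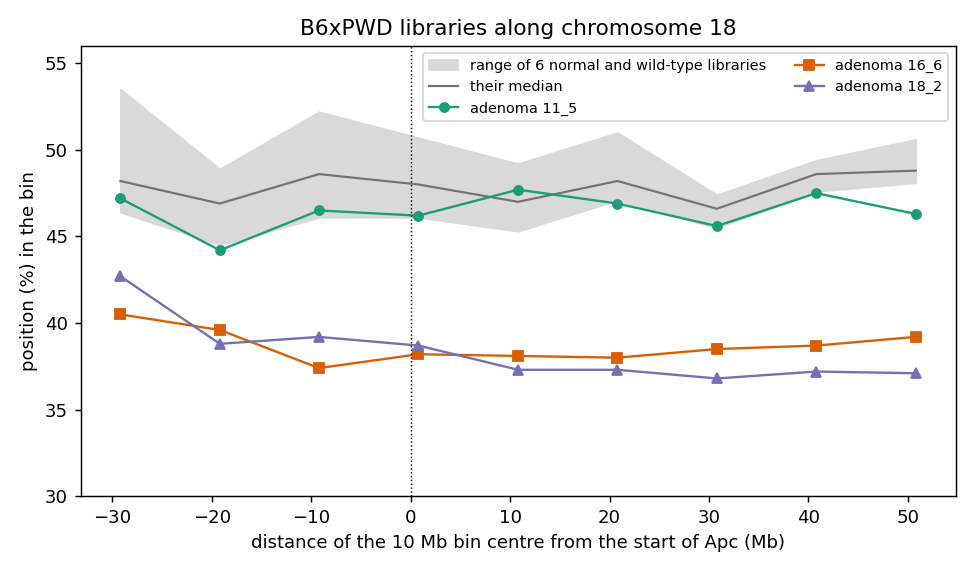
Position in 10 Mb bins of chromosome 18 (vertical axis, percent, starting at 30%) against the distance of the bin centre from the start of Apc (Mb); the grey band spans the 6 B6xPWD libraries without tumour and the lines are the 3 adenomas. Adenomas 16_6 and 18_2 stay under the band in 9 of 9 bins and adenoma 11_5 is under it in 4.

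Around Apc itself all 3 adenomas lay under the libraries without tumour. Within 1 Mb of the gene, over 95 windows higher and 182 lower in PWD, adenomas 11_5, 16_6 and 18_2 lay at 41.4%, 39.1% and 40.6%, and the 6 libraries at 44.1% to 51.8%. Within 2 Mb the adenomas lay at 43.3%, 37.4% and 40.4% and the 6 libraries at 46.5% to 50.5%. In the 5 Mb bin from 30 to 35 Mb, which holds Apc, adenoma 11_5 lay at 42.7% and the 6 libraries at 45.3% to 49.8%. In the next bin, from 35 to 40 Mb, 11_5 was at 50.3%, inside their range of 43.9% to 51.9%. These regions were looked at after the bin values were seen. The lowest 5 Mb bin of 11_5 on chromosome 18 differed from the mean of the 6 by -5.48 percentage points, and on the other autosomes bins of that library reached -8.96.

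The gene model of Apc spans chr18:34220297-34322190 and held 64 tested windows, of which 2 were in the class higher in PWD and 9 in the class lower. Chosen after their values were seen, the window with the lowest p in each direction is given. The window chr18:34267251-34267500 had 0.195 ± 0.108 CPM in B6 wild type (SD, n = 4) and 1.05 ± 0.150 in PWD (n = 3), a log2 difference of 2.38 ± 0.40. The 6 B6xPWD libraries without tumour had 0.352 to 0.692 CPM there, and the adenomas had 0.948, 0.544 and 0.750. The window chr18:34294751-34295000 had 0.710 ± 0.189 CPM in B6 and 0.0861 ± 0.0747 in PWD, a log2 difference of -2.96 ± 0.47. The 6 libraries had 0.396 to 0.646 CPM and the adenomas 0.299, 0.408 and 0.437. In neither window did 16_6 or 18_2 move toward B6 beyond the 6 libraries, so the shift seen over the region cannot be read from these windows singly.

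The CpG-richer end of the Apc gene model (chr18:34219297-34220796) was lower in PWD. B6 wild-type libraries had 2.00, 1.49, 1.68 and 2.52 CPM, PWD libraries 0.911, 0.776 and 1.06, and the groups did not overlap. The log2 difference was -1.05 ± 0.25, with an edgeR adjusted p of 0.00176. In B6xPWD the adenomas had 1.51, 1.32 and 1.44 CPM, the Apc Min normal libraries 1.42, 1.3 and 0.893, and the wild-type libraries 1.64, 1.65 and 1.5. Adenomas lay within the range of the others. The log2 difference of adenoma from Apc Min normal was 0.24 ± 0.27 in B6xPWD, -0.02 ± 0.22 in B6 and -0.13 ± 0.12 over 5 strains, with an adjusted p of 1 in each. Apc Min normal differed from wild type by -0.18 ± 0.12 over 4 strains (adjusted p 1).

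Positions could also be taken over single large genes of the list of 33, at the 9 that had at least 5 windows of each class, though with few windows the 6 libraries spread widely. Adenoma 16_6 was under the median of the 6 in 9 of 9 genes and 18_2 in 8 of 9, and each was under all 6 in 6 of 9. Adenoma 11_5 was under the median in 5 of 9 and under all 6 in 0 of 9. On the other autosomes, where genes were not counted, 16_6 and 18_2 were under all 6 in 42.4% and 23.0% of 10 Mb bins. Such bins are larger than these genes, so those shares are not a like background for the gene counts. In Setbp1, which encodes a SET-binding protein, 11_5, 16_6 and 18_2 lay at 48.8%, 39.2% and 31.3% and the 6 libraries at 42.4% to 57.2%. In Mbp, the gene of myelin basic protein, they lay at 43.3%, 37.4% and 35.2% against 42.3% to 50.5%. In Mcc, mutated in colorectal cancers, the values were 46.5%, 38.1% and 31.9% against 40.6% to 45.7%. In Dcc, a netrin receptor gene often deleted in colorectal cancer, they were 47.6%, 44.2% and 40.6% against 44.1% to 56.4%, so 16_6 overlapped the others there.

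Strains whose chromosome 18 is B6 served as controls. Chromosome 18 positions averaged 4.54% ± 1.45 (SD, n = 8) in B6 Apc Min libraries, 8.62% ± 2.05 (n = 6) in C5, 8.91% ± 2.38 (n = 6) in C5F1 and 2.85% ± 0.563 (n = 4) in C1_5F1. In C5 and C5F1 the difference from B6 was 4.08 and 4.37 percentage points (exact permutation test, adjusted p 0.004 each) and in C1_5F1 it was -1.69 (0.0364). The same libraries were shifted on the autosomes in general: chromosome 18 minus the mean of the autosomes other than 1, 5 and 18 differed from B6 by -0.0548, 0.139 and -0.0698, with an adjusted p of 0.872 for each. In 10 Mb bins the 30 control libraries lay between -0.766% and 15.1%. With wild type included, C5 and C5F1 libraries of label number 16 lay at 5.26% to 7.33% on chromosome 18. Those of label number 12 lay at 8.48% to 12.8%. Relative to the autosomes other than 1, 5 and 18, they ran from -1.59 to 0.0703 (number 16) and from -0.924 to 0.769 (number 12). The part of the label number in the position was not tested.

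In the control strains adenomas lay within 1 percentage point of normal mucosa on average. On chromosome 18, B6 adenomas differed from Apc Min normal mucosa by -0.711 percentage points, C5 adenomas by -0.349, C5F1 adenomas by -0.397 and C1_5F1 adenomas by 0.584, against -6.97 for B6xPWD. After subtracting the mean of autosomes 2 to 4, 6 to 17 and 19, these 4 strains gave -0.0469, -0.0636, -0.638 and 0.711, with exact p of 0.893, 1, 0.4 and 0.333. The last is the smallest that 2 against 2 libraries can give. A shift toward B6 could not show in these strains, whose homologues are both B6, so their values describe how the scale moves in adenomas without it. The test of the difference itself, with tissue labels permuted within each strain, gave -5.80 for B6xPWD minus B6 (exact p = 0.175), -5.78 for C5 (0.190), -5.21 for C5F1 (0.290) and -6.56 for C1_5F1 (0.0333). None passed after adjustment (adjusted p 0.133 to 0.290).

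The share of all autosomal counts that lie on the chromosome was compared next. Chromosome 18 held 3.608%, 3.645% and 3.683% of autosomal counts in adenomas 11_5, 16_6 and 18_2 of B6xPWD, with a mean of 3.645% ± 0.0373 (SD, n = 3), and 3.618% ± 0.0300 (n = 6) in the 6 libraries without tumour, which ran from 3.568% to 3.656%. The difference was 0.0271 percentage points (exact p = 0.286). It was 0.00827 without adenoma 18_2, 0.0456 without adenoma 11_5 and 0.017 without normal mucosa 11_6. As ratios to the mean of the 6, the adenomas had 0.997, 1.01 and 1.02. Chromosome 18 ranked 8th, 17th and 19th from the lowest of the 19 autosomes in 11_5, 16_6 and 18_2. The ratios of the other autosomes ran from 0.991 to 1.02, from 0.993 to 1.01 and from 0.977 to 1.01. Libraries with label number 16 had high shares in C5 and C5F1 adenoma and normal mucosa (3.733% to 3.750%). The same held for wild type of C5 (3.731%) and of B6 (3.748%), while C5F1 wild type 16_7 had 3.683%. In B6xPWD the libraries of that number had 3.629% to 3.645%. The part of that number in the shares was not tested. Over 5 strains adenoma minus Apc Min normal was 0.00483 percentage points (exact permutation within strains, p = 0.823).

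**Figure D5:**
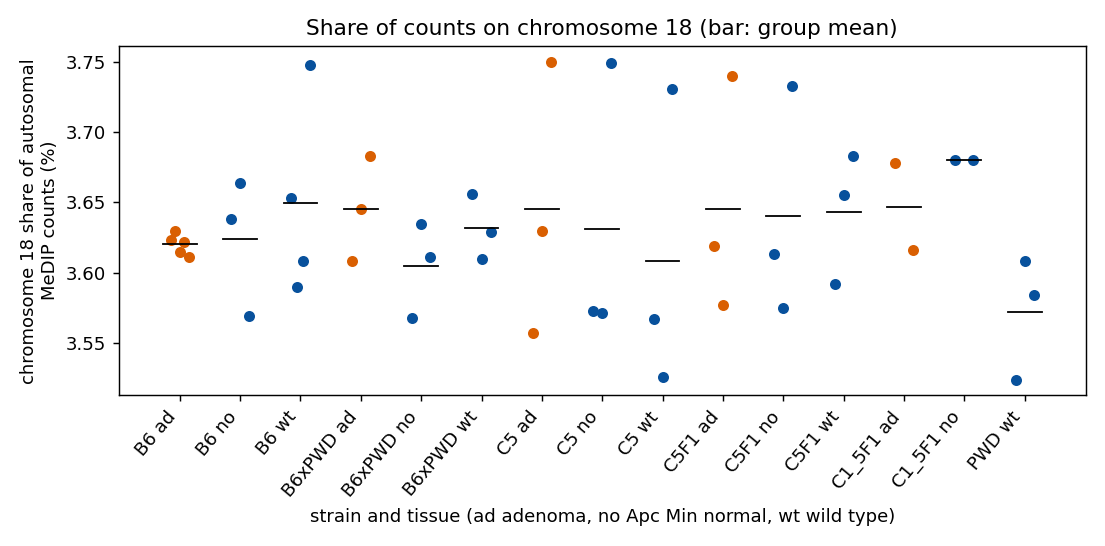
Share of autosomal MeDIP counts that lie on chromosome 18 (vertical axis, percent, not starting at 0) for every library by strain and tissue, with the group mean as a bar; adenomas are orange. The B6xPWD adenomas lie at 3.608% to 3.683% and the 6 B6xPWD libraries without tumour at 3.568% to 3.656%.

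The input library of adenoma 11_5 is sequenced DNA without capture, so its counts do not depend on methylation. They depend on copy number and on how reads map to the B6 reference. It held 268446 chromosome 18 reads of 7331147 autosomal reads, 3.66% (95% Clopper-Pearson interval 3.648% to 3.675%, counting error only). At the chromosome 18 windows lower in PWD its reads per window were 0.875 times those at windows that did not differ (4962 reads, interval 0.848 to 0.903). On the other autosomes this ratio ran from 0.779 to 0.963, with a median of 0.844, and 15 of 18 were under chromosome 18. At windows where PWD had no MeDIP count the ratio was 0.545 (201 reads, 0.472 to 0.626) on chromosome 18 and 0.385 to 0.611, median 0.473, on the others. Chromosome 18 of adenoma 11_5 lay within the range of the other autosomes in both ratios, but toward its upper end. In the second ratio 17 of 18 were under it. At windows higher in PWD the ratio was 1.00 (2804 reads, 0.965 to 1.04). The labels name no input library of adenoma 16_6 or 18_2, so these ratios could not be taken for them.

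No single chromosome 18 window passed the test in adenomas. In B6xPWD adenoma against Apc Min normal, 0 of 42531 windows passed with edgeR (0.0% of all windows tested). There 1325 had an unadjusted p under 0.05, or 3.12%, against 3.11% of all windows. Over 5 strains 0 windows passed (0.000768% of all windows) and 1649 were under 0.05, or 3.88% against 3.95% of all. In B6 alone 0 passed (0.000512%) and 1608 were under 0.05, or 3.78% against 3.79%. Between Apc Min normal and wild type over 4 strains 0 passed (0.0%) and 1074 were under 0.05, or 2.53% against 2.55%. For the difference of the adenoma effect between B6xPWD and B6 0 passed (0.0%) and 1416 were under 0.05, or 3.33% in both. Each count of unadjusted p lay near the background share. The F1 wild type against B6 wild type gave 432 higher and 196 lower windows, 1.02% and 0.461%, against 1.01% and 0.354% of all windows.

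In that B6xPWD adenoma comparison the classes leaned in opposite directions. The median log2 difference was -0.10 over the 2898 windows higher in PWD, 0.13 over the 5886 lower in PWD and 0.02 over all 42531, and 39.4%, 61.1% and 51.7% of windows were above 0. In B6 adenomas the medians were -0.01, 0.02 and 0.01. The Apc Min normal libraries of the first comparison also enter the position, so this restates it by window.

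The windows with the lowest p in each direction did not pass, and are given as values. In B6xPWD adenomas a window in Ldlrad4, which encodes an inhibitor of TGF-beta signalling (chr18:67966751-67967000), had 0.399, 0.408 and 0.250 CPM, against 0.755 to 1.49 in the 6 libraries without tumour, 0.457 in B6 wild type and 1.26 in PWD. The log2 difference was -1.58 ± 0.37 (edgeR adjusted p 1). The groups did not overlap, but the window was chosen for its low p in this comparison. Its mean was also lower in adenoma than in Apc Min normal mucosa in B6 (0.343 against 0.623 CPM), C5 (0.449 against 0.889) and C5F1 (0.502 against 0.654). In C1_5F1 it was higher in adenoma (0.498 against 0.351). A window in Tcf4, which encodes a basic helix-loop-helix factor (chr18:69451251-69451500), had 0.748, 0.544 and 0.750 CPM against 0.0888 to 0.283, with 0.522 in B6 and 0.202 in PWD. Its log2 difference was 1.94 ± 0.48. A window in Celf4, which encodes an RNA-binding protein (chr18:25712001-25712250), had 0.748, 0.634 and 0.562 CPM against 0.0943 to 0.266, above both parents at 0.293 and 0.388. Windows in Hsbp1l1 and near Fzd8, a Wnt receptor gene, were at 2.14 and -1.57 on the log2 scale. Near Kctd1 the adenomas had 0, 0 and 0.0625 CPM against 0.0899 to 0.377. In B6 adenomas the lowest p fell on a window in Camk2a, a calmodulin-dependent kinase gene (chr18:60945001-60945250), with 0.0725 ± 0.0506 CPM (SD, n = 5) against 0.556 ± 0.306 in Apc Min normal (n = 3), a log2 difference of -2.87 ± 0.56 (adjusted p 0.207). The others in B6 were near Hspa9 and Srfbp1 and in Dym, at 1.27, 2.11 and 1.49, and in Ccdc68 and beyond Dcc, at -1.40 and -1.18. Over 5 strains they were near Etf1 (1.06), in Csnk1g3 (1.28) and Dym (1.2), in Smim3 (-0.71) and near Tcf4 (-0.98) and Zbtb7c (-0.88), with adjusted p of 0.215 to 0.504.

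At gene ends, 292 of 12436 tested lay on chromosome 18. Between PWD and B6 wild type, 16 were higher in PWD (5.48%, against 6.16% of all gene ends) and 26 were lower (8.90%, against 6.67%). Tmx3, which encodes a thiol oxidoreductase of the endoplasmic reticulum, had 0.139 CPM in B6 and 1.55 in PWD, a log2 difference of 3.41 ± 0.41. Txnl4a, a spliceosome protein gene, and Gm16286 share their end and were higher by 2.45 ± 0.29. The end of Spire1 was at -4.62 ± 0.38, that of Sting1, the gene of a sensor of cyclic dinucleotides, at -1.70 ± 0.20, and that of Oacyl at -2.57 ± 0.43. The edgeR adjusted p was 8.36e-06 or lower for each of these. At Txnl4a, Tmx3, Spire1 and Sting1 the B6xPWD libraries without tumour lay between the parental means, and at Oacyl their highest was above the B6 mean of 0.689 CPM. Adenoma 18_2 lay above them at Spire1 (2.14 CPM against 1.14 to 1.65), Oacyl (0.942 against 0.412 to 0.722) and Tmx3 (1.19 against 0.625 to 0.957). The first pair is toward B6 and the last toward PWD.

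No chromosome 18 gene end passed in adenomas or with the Min allele. In B6xPWD adenomas 0 of 292 passed with edgeR (0.0161% of all gene ends). There 13 had an unadjusted p under 0.05, or 4.45%, against 4.48% of all gene ends. Over 5 strains 0 passed (0.0161%) and 16 were under 0.05, or 5.48% against 4.72%. For Apc Min normal against wild type 0 passed (0.0%) and 8 were under 0.05, or 2.74% against 2.39%. DESeq2 also called 0 on the chromosome in each of these. The lowest p in B6xPWD adenomas fell on LOC108168367 (1.48 ± 0.46), Atp8b1, a phospholipid flippase gene (1.33 ± 0.44), and Slc14a2, a urea transporter gene (0.66), and in the other direction on Tcf4 (-0.96 ± 0.41), Reep5 (-1.03 ± 0.44) and Pik3c3, a lipid kinase gene (-0.57 ± 0.28), with adjusted p of 0.697 to 1. At Reep5, which encodes a protein that shapes the endoplasmic reticulum and lies beside Apc, the adenomas had 0.195, 0.363 and 0.251 CPM and the 6 libraries 0.294 to 0.722. Over 5 strains they were Dok6 (0.88), Cd74 (0.27), Rttn (0.57), Elac1 (-0.59), Pdgfrb (-0.41) and Gm46617 (-0.87). For the Min allele they were Cxxc1 (0.51), Rbbp8 (0.48), Dsg3 (0.40), Fgf1 (-0.27), Mtpap (-0.30) and Mc4r (-0.37).

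Of 10 tumour suppressor, Wnt and TGF-beta genes of the chromosome, 5 gene ends passed the count filter: Apc, Dcc, Reep5, Camk4 and Ctnna1, the gene of alpha-catenin. The ends of Mcc, Spry4 and the signal transducers Smad2, Smad4 and Smad7 had too few counts, at 0.141 CPM or less in B6 wild type. Between PWD and B6, 1 of the 5 passed, Apc, and the list median was -0.79 on the log2 scale, against -0.091 over chromosome 18 and 0.004 over all gene ends. In B6xPWD adenomas 0 of 5 passed, 3 were above 0 and the median was 0.20, against 0.032 over the chromosome. Of 10 transcription factor genes 6 were tested and 0 passed in any of these comparisons; their median was -0.17 in B6xPWD adenomas. Cdx1, the caudal factor of intestinal epithelium, had 1.46 CPM in adenoma 11_5 and 0.136 and 0.188 in 16_6 and 18_2, against 0.182 to 0.589, so 11_5 lay above and 16_6 below the 6 libraries. Gata6, Zeb1, Nfatc1 and the glucocorticoid receptor gene Nr3c1 were at -0.25, 0.19, -0.09 and -0.42.

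Of 5 genes methylated in colorectal cancer 2 were tested and 0 passed: Cdo1, the gene of cysteine dioxygenase, at 0.12 in B6xPWD adenomas and -0.64 over 5 strains, and Mbp at 0.49 and 0.15. Of 8 cell marker genes 5 were tested. Cd74, the invariant chain of antigen presentation, passed between PWD and B6, where it was higher by 0.69 ± 0.19 (edgeR adjusted p 0.00937), with 2.03 ± 0.576 CPM in B6 (n = 4) and 3.30 ± 0.568 in PWD (n = 3). In B6xPWD adenomas 0 of 5 marker genes passed, with a list median of -0.10.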

How the data were processed

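MeDIP libraries of mouse intestine were read from deposited tables of raw counts per 250 bp window, which the authors made from mapped reads; the submitters' processing notes name BWA and the build mm10 (versions not given in the sources used here). The deposited CpG density of each window is a score whose scale is not stated per the file headers. Depth was 8358806 to 27842607 counts per library; p-values measure the spread between libraries, which may be technical. Windows and gene ends were tested with edgeR 4.0.16 (TMM, minimum count 10, quasi-likelihood, Benjamini-Hochberg over all autosomal features tested), with all 46 libraries in 15 groups; for windows the dispersion trend came from every 20th window. DESeq2 1.42.0 was an alternative for gene ends. A gene end is the CpG-richer end of a RefSeq gene model (GRCm38.p6), from 1000 bp outside to 500 bp inside. Positions were compared by exact two-sided permutation tests. The programs were tested on simulated data. Named items are the listed genes, the 3 gene ends and 3 windows (4 between the parents) with the lowest p per direction. The members and lists were chosen with earlier results of these data known. Alternatives were the choice of windows, scaling, filters, label number and each library left out.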

Additional observations from a re-analysis of the deposited data

Results flagged for a closer look

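Among the 6 B6xPWD libraries without tumour, the highest chromosome 18 position, 49.2%, stood apart from the other 5 (47.3% to 48.0%) by Dixon's test. It belongs to 11_6, the library whose labels conflict. Its chromosome 18 minus the other autosomes was -0.0202 percentage points. Chance gives such a gap in about 1 in 20 groups, and 9 groups were tested.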

How the results depend on the processing

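The adenoma difference in position of -6.99 kept its sign in every alternative run; it was -6.75 (exact p = 0.0952) with windows higher in PWD only, -6.81 (exact p = 0.0833) within label numbers, -1.49 without 16_6 and 18_2, and -9.74 to -5.42 with 1 library left out. Relative to the other autosomes it was -6.54 with windows lower in PWD only (exact p = 0.119), -5.82 at CpG scores of 2 to 10 (exact p = 0.0714), -5.91 within label numbers, -0.325 without both adenomas, and -8.76 to -4.15 with 1 library left out. Apc Min normal minus wild type turned to 1.27 with windows lower in PWD, 0.033 at 4-fold, 0.234 by medians and 0.301 within label numbers, and ran from -0.673 to 0.281 with 1 library left out. The share over 5 strains ran from -0.00562 to 0.0166. The input ratio was 0.818 at 4-fold, 0.545 at windows without PWD counts and 1.05 against all windows. Chromosome 18 windows called between the parents fell from 9391 of 42531 to 3090 at a minimum count of 20 and 4525 with label number as a factor. For the F1 the count fell from 628 to 243 and 50. The adenoma comparison over 5 strains gave 1 window with that factor. The higher minimum count leaves fewer windows to test, so its counts are not over the same set. Shares over all windows are not given for these runs. No other cause was tested. No paired analysis was possible because the labels give no number that ties samples of one animal. Few reads per window limit single windows.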
